A study of Mus musculus with 9 samples.

Results

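Sox13 and its relatives of the SOX family were followed in mouse acute myeloid leukemia (AML) cells with and without an IL-34 retrovirus. The study shortlisted Sox13 for its expression pattern in these groups, its high level and a relation to stemness, and reported that quantitative PCR verified it. It took Sox13 further after finding a positive correlation with IL-34 in human datasets, and then knocked it down in the IL-34 cells. The question here is whether other SOX genes rose with Sox13. The 8 members were taken by gene name from the 55536 genes of the expression table: Sox13, Sox5 and Sox6 of the SOXD group, Sox4, Sox11 and Sox12 of the SOXC group, Sox18 of the SOXF group and Sox2 of the SOXB1 group. The other 12 mouse SOX genes were read beside them, which makes 20 in all.

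The leukemia was started by infecting lineage-negative cells of C57B6.SJL mice with a retrovirus for the fusion gene MLL-AF9 and GFP. Its GFP+ cells were then infected with a blank BFP retrovirus (MA9 cells) or with the same vector carrying IL-34 (MA9-IL-34 cells). Of the GFP+BFP+ cells, 100000 per mouse were given without irradiation to C57BL/6J recipients of 6 to 8 weeks of age, and leukemia cells were sorted from bone marrow on day 18. The labels give C57BL/6J as the strain. Each of 3 groups has 3 libraries. The MA9-c-Kit- group is the fraction of MA9 leukemia without c-Kit and the MA9-c-Kit+ group the fraction with c-Kit, the receptor of stem cell factor. MA9-IL-34 cells are, by the sample titles, c-Kit+ cells from mice with the IL-34 virus. The article's methods name no c-Kit sort for them, and it reports that most MA9-IL-34 cells were c-Kit+. The contrast of MA9-IL-34 against MA9-c-Kit+ cells is called the IL-34 contrast here. That of the MA9-c-Kit+ against the MA9-c-Kit- fraction is the c-Kit contrast. That of MA9-IL-34 cells against the MA9-c-Kit- fraction, which differ by virus and sort, is the joint contrast. The labels do not say whether libraries came from separate mice, so the spread behind each p-value is that of these libraries and could be technical. An effect of IL-34 and any difference between the 2 infected populations cannot be told apart.

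SOX proteins are transcription factors that bind short DNA motifs around ACAAT through an HMG box and bend the DNA. SOXC proteins carry a transactivation domain, whereas SOXD proteins carry none and pair with each other through a coiled coil. In the mouse, Sox13 is best known from gamma-delta T cells that make IL-17, Sox5 and Sox6 from cartilage, Sox6 also from red cells, Sox4 from B cell progenitors and leukemia, Sox18 from vessels and Sox2 from pluripotent cells.

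The next sequences show how close the family is where the study's quantitative PCR product for Sox13 begins, since close relatives can share reads and primers. The primers come from the study's supplement. Its column of reverse primers is headed 3′ to 5′, but the letters match Sox13 transcripts as a primer read 5′ to 3′, so both are printed in that direction.
Sox13 forward: gaacagcagccacatcaagagac
Sox13 reverse: tccacgacacaggtacgcttag
Both primers were found in 4 of the 5 annotated Sox13 transcripts, including all 3 that code for protein, and bound a product of 255 bases at chr1:133384538-133385584 (GENCODE M21, build GRCm38). In the coding transcripts Sox13-201 and Sox13-203 the forward primer lay in exon 11 and the reverse primer in exon 12, both in coding sequence.

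The forward primer covers the start of the HMG box. The lines that follow give 60 coding bases from that point, with capitals at each base that differs from Sox13.
Sox13: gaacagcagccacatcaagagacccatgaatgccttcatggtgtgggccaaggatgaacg
Sox5: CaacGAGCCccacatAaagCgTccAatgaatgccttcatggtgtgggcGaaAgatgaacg
Sox6: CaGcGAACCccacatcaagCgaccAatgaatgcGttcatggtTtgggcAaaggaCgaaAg
Sox4: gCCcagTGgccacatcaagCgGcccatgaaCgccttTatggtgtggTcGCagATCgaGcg
Sox12: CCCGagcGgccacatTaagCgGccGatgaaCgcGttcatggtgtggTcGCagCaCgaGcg
Sox11: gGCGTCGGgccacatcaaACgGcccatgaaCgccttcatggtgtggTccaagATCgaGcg
Sox5 differed from Sox13 at 12 of the 60 bases and Sox6 at 14. The SOXC genes Sox4, Sox11 and Sox12 differed at 15, 16 and 17. Over whole transcripts, the longest exact run that another SOX gene shared with Sox13 was between 12 and 35 bases in the 18 genes compared. Sox5 shared 23 bases, Sox4 14 and Sox12 13. The longest, of 35 bases, was with Sox7, which was listed at 0 in every library.

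SOX transcripts in the MA9-c-Kit+ and MA9-IL-34 groups came mainly from Sox13 and Sox4. In the MA9-c-Kit- group these genes gave 48.9% to 81.3% of the SOX sum. Levels are in TPM, a share of all transcripts that is corrected for transcript length. Only Sox13, Sox4, Sox12 and Sox5, 4 of the 20 genes, reached 1 TPM in 3 or more of the 9 libraries, which was the filter for testing. The other 4 members did not. Sox11, a SOXC factor of the developing nervous system, and Sox2 were listed at 0 in all 9 libraries. Of the 12 SOX genes outside the member list, 7 were at 0 throughout and the other 5 stayed at or below 0.19 TPM, the highest value belonging to Sox15. The heat map of all 20 genes has only a few bands above the background.

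**Figure D1:**
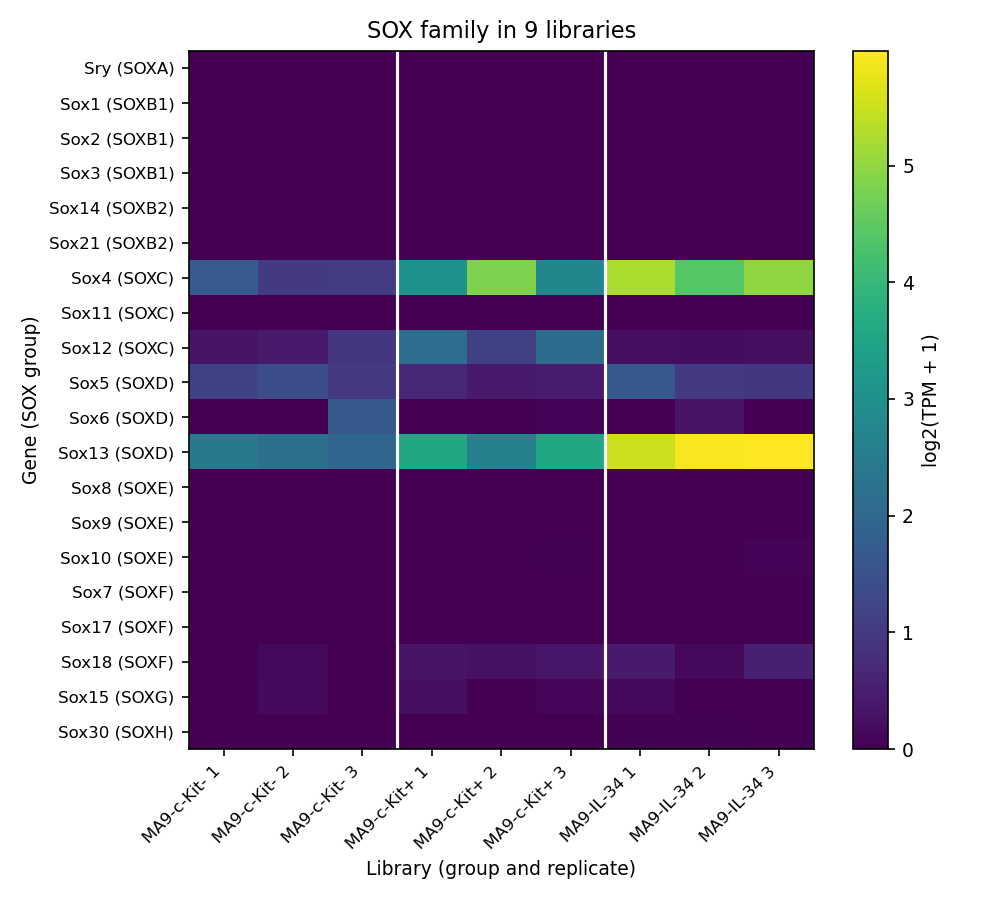
Heat map of log2(TPM + 1) for 20 SOX genes (rows, with their SOX group) in 9 libraries (columns, named by group and replicate, with white lines between groups). The bands of Sox13 and Sox4 are brightest on the right, in the MA9-IL-34 libraries, that of Sox12 is brightest in the middle group, and Sox6 stands out in MA9-c-Kit- 3 alone, where it reached 2.17 TPM.

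Sox13 (ENSMUSG00000070643, chr1:133382303-133424377, minus strand) was lowest in the MA9-c-Kit- libraries, with 4.35, 3.61 and 2.87 TPM. The MA9-c-Kit+ libraries held 10.8, 5.12 and 10.9 TPM. The MA9-IL-34 libraries held 45.3, 60.2 and 62.3 TPM, well apart from the rest. The 3 groups did not overlap in any library. Group means were 3.61 ± 0.740, 8.92 ± 3.29 and 55.9 ± 9.24 TPM (SD, n = 3). The ratio of mean TPM was 6.27 in the IL-34 contrast, 15.5 in the joint contrast and 2.47 in the c-Kit contrast. On the log2(TPM + 1) scale, which understates the change of low genes, these differences were 2.57, 3.63 and 1.05, each with a standard error (SE) of 0.27. The values describe a gene that was shortlisted for this pattern and carry no test.

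Sox4 (ENSMUSG00000076431, chr13:28948919-28953713, minus strand), a SOXC factor that acts as an oncogene in mouse myeloid leukemia, had the nearest pattern among the relatives. The MA9-c-Kit- libraries held 2.30, 1.02 and 1.05 TPM of it, the MA9-c-Kit+ libraries 7.31, 27.3 and 5.69 TPM, and the MA9-IL-34 libraries 37.0, 20.1 and 30.9 TPM. Both c-Kit+ groups lay above every c-Kit- library. MA9-c-Kit+ replicate 2, however, lay above MA9-IL-34 replicate 2. Group means were 1.46 ± 0.731, 13.4 ± 12.04 and 29.3 ± 8.57 TPM (SD, n = 3).

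A gene was called when limma on log2(TPM + 1) gave a fold of 2 or more with a Benjamini-Hochberg adjusted p below 0.05 over the 13722 genes tested. Sox4 rose in the joint contrast by 3.62 on the log2 scale (SE 0.50, adjusted p = 0.000399 by limma), beside 3.63 for Sox13. It also rose in the c-Kit contrast, by 2.28 (SE 0.50, adjusted p = 0.00713 by limma). In the IL-34 contrast the difference was 1.34 (SE 0.50) and did not pass (adjusted p = 0.125 by limma). This last call rested on MA9-c-Kit+ replicate 2. Without that library the IL-34 contrast gave 1.98 (SE 0.31, adjusted p = 0.00425 by limma) and the c-Kit contrast 1.64 (adjusted p = 0.00452 by limma). The same library had the lowest share of mitochondrial transcripts, 5.10% against 8.79% to 11.1% in the other 8, and the lowest Sox13 and Sox12 of its group. The part of that library in the result is the difference between the values with and without it, and the part of its RNA quality was not tested.

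A long noncoding RNA gene, Gm26735, overlaps Sox4 on the other strand over 2753 bases. The library kit does not mark strand, so reads of the shared stretch cannot be assigned with certainty. Gm26735 was named after its values were seen. It was at 0.04, 0.25 and 0.27 TPM in the MA9-c-Kit- libraries, at 0.88, 3.09 and 1.10 TPM in the MA9-c-Kit+ libraries, and at 2.80, 0.83 and 0.43 TPM in the MA9-IL-34 libraries. It was not called in any contrast. Within each of the c-Kit+ groups, its highest library was also the highest for Sox4. The MA9-c-Kit- group went the other way: replicate 1 was the lowest for Gm26735 (0.04 TPM) and the highest for Sox4 (2.30 TPM). In the MA9-IL-34 group the lowest library for Gm26735 was replicate 3, whereas the lowest for Sox4 was replicate 2.

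Sox12 (ENSMUSG00000051817, chr2:152393611-152398063, minus strand), a SOXC relative of Sox4 with a weaker transactivation domain in the mouse, went another way. The MA9-c-Kit- libraries held 0.25, 0.35 and 0.92 TPM, the MA9-c-Kit+ libraries 3.45, 1.25 and 3.36 TPM, and the MA9-IL-34 libraries 0.16, 0.14 and 0.19 TPM. The last were the lowest of all 9 libraries and the MA9-c-Kit+ libraries the highest, with no overlap between groups. Group means were 0.507 ± 0.361, 2.69 ± 1.24 and 0.163 ± 0.0252 TPM (SD, n = 3). Sox12 rose in the c-Kit contrast by 1.25 (SE 0.29, adjusted p = 0.00946 by limma). It fell by 1.60 in the IL-34 contrast (SE 0.29, adjusted p = 0.00707 by limma), in which the MA9-c-Kit+ mean was 16.5 times the MA9-IL-34 mean. At such levels the pseudocount sets the size: with 0.1 in place of 1 the differences were 2.23 and -3.28. In the joint contrast the value was -0.35 and did not pass (adjusted p = 0.351 by limma). Sox12 met the filter only through the MA9-c-Kit+ group, in which it is high.

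Sox5 (ENSMUSG00000041540, chr6:143828425-144781977, minus strand), the SOXD relative that partners Sox6 in cartilage, was low everywhere. The MA9-c-Kit- libraries held 1.27, 1.66 and 1.00 TPM, the MA9-c-Kit+ libraries 0.59, 0.36 and 0.39 TPM, and the MA9-IL-34 libraries 2.13, 1.01 and 0.95 TPM. The MA9-c-Kit+ libraries were the lowest, and the other groups overlapped. Sox5 was not called in any contrast. Its difference was 0.68 in the IL-34 contrast (SE 0.23, adjusted p = 0.0929 by limma) and 0.01 in the joint contrast (adjusted p = 0.981 by limma). In the c-Kit contrast it was -0.67 (adjusted p = 0.0460 by limma), which is under a fold of 2.

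**Figure D2:**
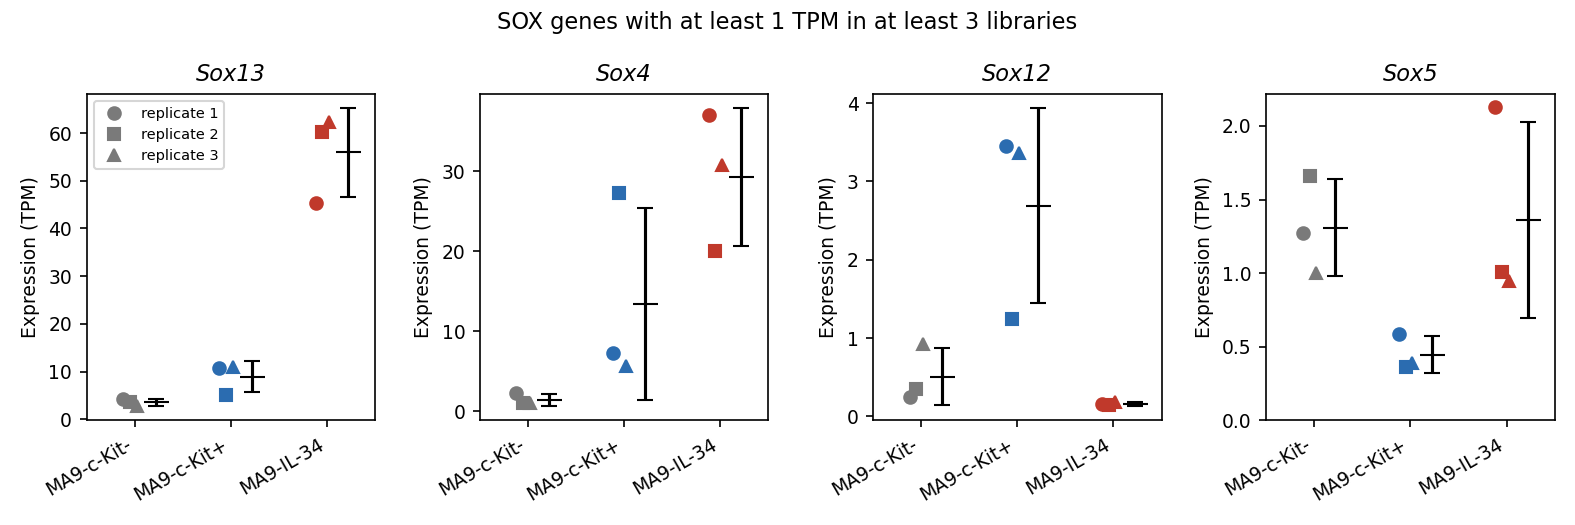
Expression in TPM (y axes, each with its own scale) of Sox13, Sox4, Sox12 and Sox5 in the 3 groups. Symbols are libraries, by replicate number, and the bars beside them the mean ± SD of 3. Sox13 separates all groups, Sox4 in MA9-c-Kit+ replicate 2 (27.3 TPM) lies within the MA9-IL-34 range, and Sox12 in the MA9-IL-34 group stays between 0.14 and 0.19 TPM.

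Calls were counted over the 3 relatives of Sox13 that could be tested. In the IL-34 contrast 1 of the 3 was called, Sox12, and it was lower. Of all genes tested 7.24% were called there, 3.86% higher and 3.38% lower. In the joint contrast 1 of the 3 was called, Sox4, and it was higher, where the share of all genes was 24% (11.3% higher and 12.7% lower). In the c-Kit contrast 2 of the 3 were called, Sox4 and Sox12, both higher, where the share of all genes was 14.8% (5.66% higher and 9.15% lower). Sox12 entered the test only through the MA9-c-Kit+ group, in which it is high. The filter thus favoured its rise in the c-Kit contrast and its fall in the IL-34 contrast. With a filter of 5 TPM, 0 relatives were called in the IL-34 contrast and 1 in the c-Kit contrast.

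Libraries without overlap were common among all genes, and those of the relatives are to be read beside these shares. In the IL-34 contrast Sox5 was higher and Sox12 lower without overlap, as were 18.4% and 15.8% of all genes. In the joint contrast this held for Sox4, higher, and Sox12, lower, as for 34% and 30% of all genes. In the c-Kit contrast Sox4 and Sox12 were higher and Sox5 was lower, as were 23.2% and 22.4% of all genes. With 3 genes these counts are a description. The median difference over all genes tested was 0.01, 0.06 and 0.03 on the log2 scale in the IL-34, joint and c-Kit contrasts. The contrasts share their groups and are not independent of each other.

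**Figure D3:**
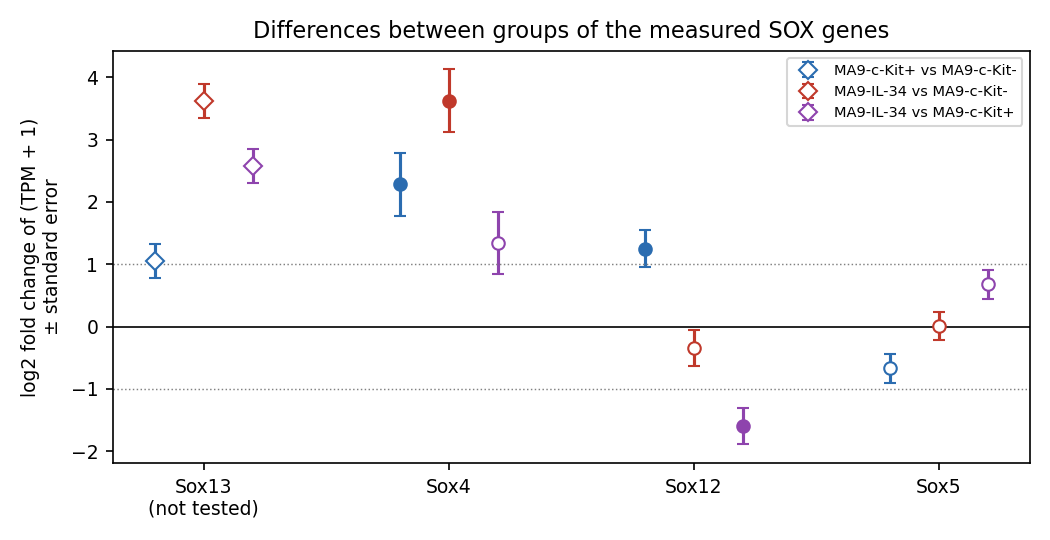
Log2 fold change of (TPM + 1) between groups (y axis) with its standard error for Sox13, Sox4, Sox12 and Sox5, with 1 colour per contrast. Filled symbols passed the test, open circles did not, diamonds mark Sox13, which was not tested, and dotted lines mark a fold of 2. Sox13 and Sox4 lie at 3.63 and 3.62 in the joint contrast, and Sox12 lies at -1.60 in the IL-34 contrast.

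Summed over the 20 genes, SOX transcripts made up 8.18, 6.84 and 8.02 TPM of the MA9-c-Kit- libraries, 22.6, 34.3 and 20.8 TPM of the MA9-c-Kit+ libraries and 85.1, 81.8 and 94.8 TPM of the MA9-IL-34 libraries. The sum separated all 3 groups only with Sox13, the shortlisted gene, in it. Without Sox13 the sums were 3.23 to 5.15, 9.88 to 29.1 and 21.6 to 39.8 TPM, and MA9-c-Kit+ replicate 2 lay above MA9-IL-34 replicate 2. Sox13 and Sox4 together gave 48.9% to 81.3% of the sum in the MA9-c-Kit- group, 79.8% to 94.7% in the MA9-c-Kit+ group and 96.8% to 98.3% in the MA9-IL-34 group. Sox13 was above Sox4 in 8 of the 9 libraries. The exception was MA9-c-Kit+ replicate 2, where the ratio of Sox13 to Sox4 was 0.188, while it lay between 1.23 and 3.54 in the others.

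**Figure D4:**
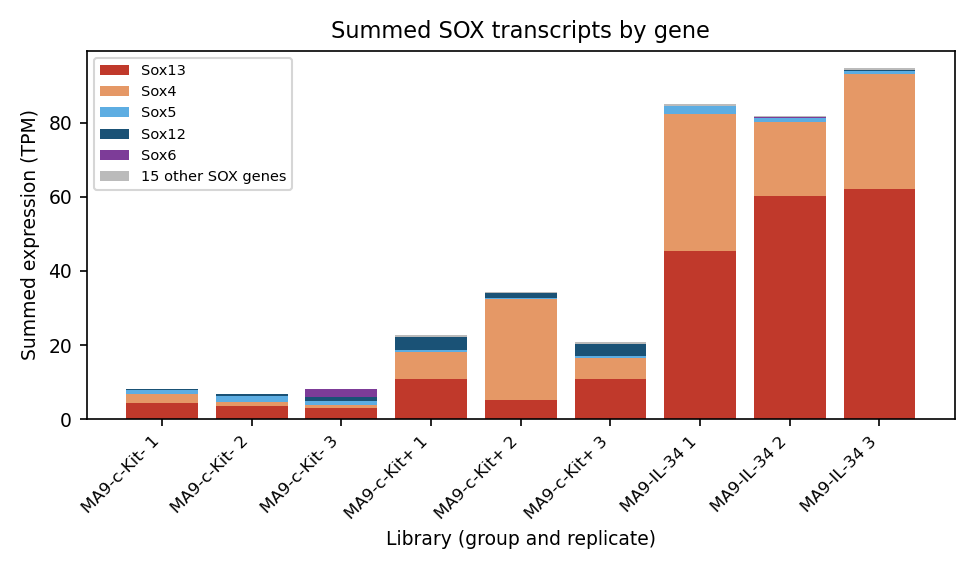
Summed TPM of the SOX family in each library (bars, y axis from 0), divided by gene. The MA9-IL-34 bars reach 81.8 to 94.8 TPM and consist almost wholly of Sox13 and Sox4. Without Sox13, MA9-c-Kit+ 2 (29.1 TPM) exceeds MA9-IL-34 2 (21.6 TPM), and in MA9-c-Kit- 3 a part of the bar is Sox6.

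Sox6 (chr7:115470872-116038796, minus strand), which in the mouse works with Bcl11a to silence embryonic globin in red cell precursors, stood out in a single library. It was at 0.01, 0 and 2.17 TPM in the MA9-c-Kit- group, at 0, 0.01 and 0.04 TPM in the MA9-c-Kit+ group and at 0, 0.25 and 0 TPM in the MA9-IL-34 group. MA9-c-Kit- replicate 3 alone was above 1 TPM. The same library held 2445 TPM summed over 9 erythroid genes, against 53.1 and 15.9 TPM in the other MA9-c-Kit- libraries, 7.54 to 37.6 TPM in the MA9-c-Kit+ libraries and 3.42 to 3.91 TPM in the MA9-IL-34 libraries. Among them, the globin gene Hbb-bs was at 1031 TPM there and Gata1, a regulator of red cell genes, at 25.3 TPM. Bcl11a had its highest value, 10.1 TPM, in that library too. In bulk RNA, fewer cells of a type and less RNA per cell cannot be told apart. The part of red cell transcripts in the Sox6 value was not tested. Sox4 and Sox12 kept their calls without this library, and Sox5 stayed uncalled. Among the erythroid genes, the α-globin genes Hba-a1 and Hba-a2, near-identical copies that can share reads, were called lower in the joint contrast (-4.69, adjusted p = 0.00949 and -4.21, adjusted p = 0.0299 by limma). The Hba-a2 call was lost without any 1 of the MA9-IL-34 libraries (adjusted p from 0.0657 to 0.0768 by limma). Hba-a1 was called lower in the IL-34 contrast (-1.44) and in the c-Kit contrast (-1.50) once MA9-c-Kit- replicate 3 was left out. Without MA9-c-Kit- replicate 2 both were called lower in the c-Kit contrast (-4.27 and -4.67). Bcl11a was called lower in the joint contrast (-1.97, adjusted p = 0.0159 by limma), and also in the c-Kit contrast without MA9-c-Kit- replicate 2 (-1.73). Bcl11a met the filter only through 2 c-Kit- libraries (2.08 and 10.1 TPM) and 1 c-Kit+ library of MA9 cells (1.33 TPM). Its highest value with the IL-34 virus was 0.01 TPM, so the filter favoured its fall in the joint contrast.

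**Figure D5:**
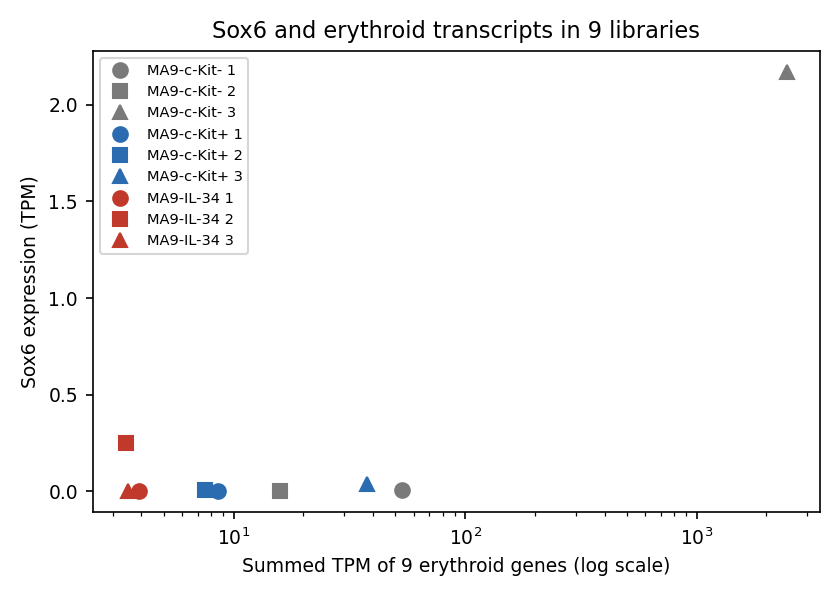
Sox6 in TPM (y axis) against the summed TPM of 9 erythroid genes (x axis, log scale), with 1 point per library, coloured by group. MA9-c-Kit- 3 lies at 2445 TPM and 2.17 TPM, and the other 8 libraries stay at or below 0.25 TPM of Sox6.

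Sox18, a SOXF factor of blood and lymph vessels, stayed at or below 0.45 TPM. It was at 0, 0.09 and 0 TPM in the MA9-c-Kit- group, at 0.25, 0.21 and 0.29 TPM in the MA9-c-Kit+ group and at 0.35, 0.10 and 0.45 TPM in the MA9-IL-34 group. Each c-Kit+ library was above each c-Kit- library, at levels below the filter, with 0.10 against 0.09 TPM as the closest values. Of all genes tested, 23.2% were higher without overlap in the c-Kit contrast and 34% in the joint contrast. Of 8 endothelial markers, 6 were below 1 TPM in every library and Emcn was at 0 throughout. Their sum, most of it Pecam1, which blood cells also express, ran from 55.6 to 101 TPM, 42.8 to 145 TPM and 90.3 to 137 TPM in the groups. Vwf, which encodes a clotting factor of endothelium and platelets, went the other way from Sox18. It was at 11.5, 11.3 and 11.2 TPM in the MA9-c-Kit- group, at 3.22, 1.68 and 4.72 TPM in the MA9-c-Kit+ group and at 0.38, 0.33 and 0.28 TPM in the MA9-IL-34 group. It fell in the IL-34 contrast (log2 difference -1.59, adjusted p = 0.00358 by limma), the joint contrast (-3.22, adjusted p = 1.6e-05 by limma) and the c-Kit contrast (-1.62, adjusted p = 0.00147 by limma).

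Of 6 stromal genes 3 were below 1 TPM in every library, and 2 were tested. Pdgfrb, a receptor of platelet-derived growth factor, had means of 1.42, 2.20 and 10.9 TPM in the MA9-c-Kit-, c-Kit+ and IL-34 groups. It rose in the IL-34 contrast by 1.93 (adjusted p = 0.000531 by limma) and in the joint contrast by 2.30 (adjusted p = 4.22e-05 by limma). Lepr, the leptin receptor, had means of 63.9, 32.9 and 27.0 TPM and fell in the joint contrast (-1.21, adjusted p = 0.00346 by limma). It was also called lower in the c-Kit contrast (-1.02, adjusted p = 0.0115 by limma), but dropped below a fold of 2 without MA9-c-Kit- replicate 1 (-0.97), MA9-c-Kit+ replicate 1 (-0.88) or MA9-c-Kit+ replicate 3 (-0.82). What stromal or endothelial cells contribute to the SOX values was not tested.

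The 8 transcripts named as overlapping or antisense to SOX genes, such as Sox2ot and Sox6os, reached at most 0.01 TPM.

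Sox13, Sox4 and Sox12 were all higher in the c-Kit contrast. Sox12 met the filter only through the MA9-c-Kit+ group, in which it is high. In the IL-34 contrast Sox13 was higher and Sox12 lower. Sox4 did not pass there with all libraries, but did without MA9-c-Kit+ replicate 2. The upstream sequences of Sox13 and of these relatives, which passed the test in at least 1 contrast, are shown next. They are the bases directly before the outermost annotated start, from RefSeq on GRCm38.p6, read 5′ to 3′ on the minus strand. Capitals mark CCAAT or its reverse complement ATTGG, a promoter motif.
Sox13 chr1:133424378-133424462: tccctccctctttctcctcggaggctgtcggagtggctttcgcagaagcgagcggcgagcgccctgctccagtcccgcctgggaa
Sox4 chr13:28953714-28953949: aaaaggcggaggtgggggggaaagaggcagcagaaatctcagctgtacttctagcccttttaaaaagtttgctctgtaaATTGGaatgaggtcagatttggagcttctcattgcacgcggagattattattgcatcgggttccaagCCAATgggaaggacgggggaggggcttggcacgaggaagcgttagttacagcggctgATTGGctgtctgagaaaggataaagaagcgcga
Sox12 chr2:152398064-152398296: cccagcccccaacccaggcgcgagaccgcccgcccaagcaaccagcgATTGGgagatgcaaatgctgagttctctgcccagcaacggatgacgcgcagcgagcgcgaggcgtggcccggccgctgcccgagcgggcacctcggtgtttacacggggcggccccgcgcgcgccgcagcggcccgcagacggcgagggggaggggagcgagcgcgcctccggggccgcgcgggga
Motifs were counted in windows of 300 bases, from 250 before the RefSeq start to 50 after it. That start can lie inside the outermost annotated start. Of the Sox13 window only the 85 printed bases lie before the outermost start, and the rest lies within the annotated gene. For Sox4 and Sox12 the bases before it were 236 and 233. CCAAT on either strand matched 4 times for Sox4, 1 time for Sox12 and 0 times for Sox13, and 37.4% of 32851 mouse promoter windows held it. The SOX core ACAAT, counted on both strands, had no match in the windows of these genes and was in 31% of all windows. The motif of TCF and LEF factors, CTTTGA, had none either and was in 16%. The TATA box, TATAAA, had none and was in 13.6%. The windows of Sox13 and Sox12 were rich in G and C, at 73.3% and 76.7%, with 40 and 47 CpG sites, against 52% and 12 sites for Sox4 and medians of 52.7% and 7 sites over all windows. A match is a description of these letters only.

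Genes beside Sox13 on chromosome 1 were not called with it. Of the 5 measured genes on each side, only Snrpe and Zc3h11a passed the filter. The gap to Sox13 was 179 kb for Snrpe, a spliceosome component, and 195 kb for Zc3h11a, an mRNA export factor. In the IL-34 contrast Snrpe differed by 0.09 (adjusted p = 0.795 by limma) and Zc3h11a by 0.02 (adjusted p = 0.964 by limma), and neither was called in any contrast. The nearest gene, Etnk2 at 1.97 kb, had a mean of 0.02 TPM in the MA9-IL-34 group and was at 0 in the others. Ren1, which encodes renin, had a mean of 0.0667 TPM there and was likewise at 0 in the others.

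The genes whose levels followed Sox13 most closely were searched among 10889 genes with a group mean of at least 5 TPM. Pearson's r of log2(TPM + 1) describes 9 libraries that fall into 3 groups, so any gene with the same order of groups scores high. The 10 nearest were Dctn1 (r = 0.990), Uggt2 (0.987), Palm (0.987), G0s2 (0.985), Adgrl4 (0.985), Adssl1 (0.984), Tnfrsf26 (0.982), Lbp (0.982), AC166102.1 (0.982) and Tmc7 (0.981). Adgrl4, an adhesion G protein-coupled receptor, had a mean of 0.543 ± 0.153 TPM in the MA9-c-Kit- group, 3.89 ± 1.35 TPM in the MA9-c-Kit+ group and 67.1 ± 15.04 TPM in the MA9-IL-34 group (SD, n = 3). Uggt2, a folding sensor of glycoproteins, had means of 0.517, 1.08 and 6.68 TPM in the same order. Dctn1, a dynactin subunit, had 156, 214 and 390 TPM. By the same measure Sox4 had r = 0.790, Sox5 0.187 and Sox12 -0.341.

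Genes that the study shortlisted together with Sox13 in these groups are no independent evidence of a direction, and their means in the same order stand here for scale. Ikzf2, a zinc finger factor of the Ikaros family, had 1.23, 3.29 and 44.4 TPM. Fgl2, a fibrinogen-like protein, had 7.59, 20.0 and 144 TPM. Gfi1, a repressor in blood progenitors, had 7.80, 81.7 and 171 TPM, and Prom1, a surface glycoprotein of progenitor cells, 0.397, 5.16 and 14.3 TPM. Sox13 lay between Ikzf2 and Fgl2 in the MA9-IL-34 group.

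Partners of SOX proteins, not of SOX13 alone, were read next. Of 8 listed partners 5 were tested. Of these, 0 were called in the IL-34 contrast, 1 in the joint contrast and 0 in the c-Kit contrast, where 7.24%, 24% and 14.8% of all genes were called, so that 1 of 5 is near the background. Their median log2 differences were 0.05, 0.34 and 0.16, beside 0.01, 0.06 and 0.03 over all tested genes. Hhex, a homeobox protein that binds SOX13, was at 109 ± 4.54 TPM in the MA9-c-Kit- group, 76.3 ± 11.1 TPM in the MA9-c-Kit+ group and 57.1 ± 5.74 TPM in the MA9-IL-34 group (SD, n = 3). Its groups did not overlap and stood in the reverse order of Sox13. Of all genes tested, 15.8%, 30% and 22.4% were lower without overlap in the IL-34, joint and c-Kit contrasts. The largest Hhex difference, -0.93 in the joint contrast (adjusted p = 0.000321 by limma), stayed under a fold of 2, and passed it without MA9-IL-34 replicate 2 (-1.01). Ctnnb1, which encodes β-catenin, had means of 132, 148 and 97.9 TPM and differed by -0.58 in the IL-34 contrast (adjusted p = 0.0231 by limma), also under a fold of 2. Tcf7, Lef1 and Tcf7l2, TCF factors of the Wnt pathway, were below 1 TPM in every library. Tcf7l1, another TCF factor, rose in the joint contrast by 1.41 (SE 0.40, adjusted p = 0.0169 by limma), from a mean of 0.370 to 2.70 TPM. That call was lost without MA9-IL-34 replicate 1 (adjusted p = 0.0580 by limma) or replicate 2 (adjusted p = 0.0565 by limma). Without MA9-c-Kit+ replicate 2, Tcf7l1 was also called in the c-Kit contrast (1.59, adjusted p = 0.00223 by limma). Tcf7l1 met the filter only through the MA9-IL-34 group and 2 MA9-c-Kit+ libraries, where it is high. The filter thus favoured its rise in both contrasts. The corepressor gene Ctbp2 and the deacetylase gene Hdac1 were not called in any contrast.

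Genes linked to SOXC factors followed. Ezh2, a histone methyltransferase gene controlled by Sox4 in mouse cells, had means of 46.9, 89.5 and 95.6 TPM and rose in the joint contrast by 1.04 (SE 0.27, adjusted p = 0.0112 by limma). Without MA9-c-Kit- replicate 3 that value was 0.85, and without MA9-IL-34 replicate 1 it was 0.97, both under a fold of 2. In the c-Kit contrast Ezh2 was called only without MA9-c-Kit- replicate 2 or MA9-c-Kit+ replicate 3, at 1.09 in each case. Cebpa, a myeloid factor whose loss raises Sox4 in mouse leukemia, had means of 140, 86.2 and 104 TPM and was not called in any contrast. It was called lower in the c-Kit contrast (-1.09, adjusted p = 0.0127 by limma) once MA9-c-Kit+ replicate 2 was left out together with MA9-c-Kit- replicate 3. Tead2, a partner of YAP, was not called either, and the tubulin gene Tubb3 did not pass the filter. Of the 3 genes tested, 1 was called in the joint contrast and 0 in the others, beside 24% of all genes in the joint, 7.24% in the IL-34 and 14.8% in the c-Kit contrast. With 3 genes this is a description. Their values had median differences of 0.15 in the IL-34, -0.34 in the joint and -0.35 in the c-Kit contrast.

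The pluripotency genes that work with Sox2 were mostly listed at 0 with it. Of 8 such genes, Pou5f1, Zfp42, Utf1, Esrrb and Fgf4 were at 0 in all 9 libraries, and only Klf4, which monocytes also express, was tested. Klf4 was at 180, 139 and 78.3 TPM in the MA9-c-Kit- group and between 0.13 and 7.50 TPM in the 6 c-Kit+ libraries. It was lower by 6.43 on the log2 scale in the joint contrast (log2 difference -6.43, SE 0.58, adjusted p = 3.51e-05 by limma) and also in the c-Kit contrast (-5.09, adjusted p = 0.000305 by limma). In the IL-34 contrast it was called only without MA9-c-Kit+ replicate 3 (-2.02, adjusted p = 0.0205 by limma).

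Among 6 cartilage genes linked to SOXD factors, Acan and Hapln1 were at 0 throughout and only Col11a2 passed the filter. Col11a2, a collagen chain, was at 7.37, 8.97 and 5.35 TPM in the MA9-c-Kit- group, at 8.01, 14.3 and 5.10 TPM in the MA9-c-Kit+ group and at 42.6, 31.1 and 34.1 TPM in the MA9-IL-34 group. The MA9 groups overlapped, and every MA9-IL-34 library lay above both. It rose in the IL-34 contrast by 1.96 (SE 0.32, adjusted p = 0.00386 by limma) and in the joint contrast by 2.18 (SE 0.32, adjusted p = 0.000525 by limma).

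Genes of gamma-delta T cells that make IL-17, the lymphocytes best known for Sox13, were mostly under the filter. Of 12 such genes, 9 were below 1 TPM in every library, and Il17a and Tcrg-C4 were at 0 throughout. Those that passed, Zbtb16 and Maf, are transcription factors that other blood cells use as well. Maf had means of 1.46, 0.147 and 0.777 TPM in the MA9-c-Kit-, c-Kit+ and IL-34 groups and fell in the c-Kit contrast (-1.10, adjusted p = 0.00499 by limma). It met the filter only through the c-Kit- group and 1 MA9-IL-34 library. Zbtb16 was at 28.7 ± 14.9 TPM in the MA9-c-Kit- group, 4.78 ± 1.89 TPM in the MA9-c-Kit+ group and 18.2 ± 1.20 TPM in the MA9-IL-34 group (SD, n = 3). It fell in the c-Kit contrast (log2 difference -2.31, SE 0.34, adjusted p = 0.00102 by limma) and rose in the IL-34 contrast by 1.78 (SE 0.34, adjusted p = 0.00821 by limma). Of 11 general T cell markers, 9 were below 1 TPM in every library, and the list summed to 2.20 to 3.59, 2.71 to 4.28 and 3.15 to 3.35 TPM in the groups. Of 10 B lineage markers 7 were below 1 TPM in every library. Rag2, which overlaps a gene on the other strand, was called higher in the IL-34 and joint contrasts, at 1.22 to 1.66 TPM in the MA9-IL-34 group and at most 0.04 TPM elsewhere. It met the filter only through the MA9-IL-34 group, in which it is high.

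The labels were checked against their main markers. Kit was at 1.63 to 2.90 TPM in the c-Kit- libraries and at 70.6 to 135 TPM in the 6 c-Kit+ libraries. The mouse gene Il34 was at 0.11, 0.10 and 0.14 TPM in the MA9-IL-34 libraries and listed at 0 in the other 6. Human IL-34, for which the supplement lists primers, was not analysed here. Hoxa9 and Meis1, which MLL-AF9 keeps on, had group means of 459 to 503 TPM and 92.5 to 119 TPM. Mpo, a granule enzyme of myeloid progenitors, was at 26.8 to 153 TPM in the c-Kit- libraries and at 1639 to 8177 TPM in the 6 c-Kit+ libraries. Ptprc, which encodes CD45, had means of 191, 77.6 and 105 TPM and was called lower in the c-Kit contrast (-1.31, adjusted p = 0.00107 by limma). Between 12577 and 12972 genes reached 1 TPM in each library, and Spearman correlations were 0.940 to 0.986 within groups and 0.817 to 0.942 between groups. TPM keeps no counts, so the depth is unknown, and values under 1 TPM rest on an unknown number of reads.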

How the data were processed

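RNA of GFP+BFP+ leukemia cells was sequenced in 9 libraries, 3 per group, made with the TruSeq RNA kit named in the labels. The article's methods name a microarray for these cells, and its data statement names bulk RNA-seq. The authors deposited TPM values without stating the unit, which was read from column sums (977577 to 988051). Aligner, annotation and genome build are not given in the sources used here. A column lacking the minus sign was taken as MA9-c-Kit- replicate 3, and 0 columns were left over. Positions are from GENCODE M21 (GRCm38), in which 55450 identifiers were found and 86 were not.

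Genes passing the filter (13722) were fitted as log2(TPM + 1) with limma 3.58.1 in R 4.3.3, using 3 group means over all libraries and a trended prior variance. The fit was tested on simulated data. Sox13 was not tested. The SOX genes, the lists and the rule for named genes were chosen with earlier results of these data known. The rule takes all SOX genes, up to 4 called genes per list and contrast, further genes from lists of at most 8, 5 neighbours of Sox13 on each side, the 10 genes nearest to it by correlation, and genes the study shortlisted with it.

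Replicate numbers come from the titles. Deviations of same-numbered libraries from their group means correlated at 0.202, 0.239 and 0.443 in the c-Kit contrast, so the numbers were taken to pair them there. They correlated at -0.150, -0.279 and -0.0946 in the IL-34 contrast and from -0.0800 to -0.0009 in the joint contrast, where they pair nothing. Alternatives covered the filter, pseudocount, scaling, prior variance, samples fitted, replicate block, minimum fold and leaving out libraries.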

Additional observations from a re-analysis of the deposited data

How the results depend on the processing

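Sox13 kept its direction in each contrast under every alternative, with log2 differences from 2.25 to 2.73 in the IL-34, 3.51 to 3.92 in the joint and 0.89 to 1.37 in the c-Kit contrast. The calls of Sox12 and Sox4 named in the report held under each alternative in which the gene was tested. With a filter of 5 TPM in place of 1, Sox12 and Sox5 left the test, so that 0 other SOX genes were called in the IL-34 contrast and 1 in the c-Kit contrast. Leaving out 1 library gave 1 to 2 calls in the IL-34 contrast. The 2 calls came without MA9-c-Kit+ replicate 2, where Sox4 rose by 1.98 (adjusted p = 0.00425 by limma), and again without both this library and MA9-c-Kit- replicate 3, an alternative chosen after seeing the data (1.98, adjusted p = 0.00515 by limma). Over all its alternatives the adjusted p of this Sox4 difference ran from 0.00425 to 0.326. The Sox5 difference in the joint contrast, near 0, changed sign with a pseudocount of 0.1 (-0.0098), with median centring (-0.0039), without MA9-c-Kit- replicate 1 (-0.0001) or replicate 3 (-0.091), without MA9-IL-34 replicate 1 (-0.21) and without both libraries named above (-0.091), and ran from -0.21 to 0.13 when 1 library was left out. In the c-Kit contrast Sox5 was called with a pseudocount of 0.1 (-1.36, adjusted p = 0.0306 by limma) and with no minimum fold (-0.67). Counts over all genes in the IL-34, joint and c-Kit contrasts were 993, 3297 and 2033. They became 1772, 6864 and 5252 with no minimum fold, and 762 to 1140, 3008 to 3465 and 1746 to 2311 when 1 library was left out.

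With the replicate block over the 2 groups compared, 659 genes were called in the IL-34 contrast, where the numbers do not pair the samples. The block changed no call of a SOX gene. In the c-Kit contrast the numbers were taken to pair the libraries, which the labels do not state. There the blocked adjusted p by limma was 0.0265 for Sox4, 0.0239 for Sox12 and 0.0574 for Sox5. With this block 2082 genes were called in the c-Kit contrast, against 2033 without it. All other c-Kit p-values given in the report come from the fit without a block.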
